A study of Homo sapiens with 12 samples.

Results

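The genes of the translation initiation factors were examined in acRIP-seq peak lists of SW620 cells, a human colorectal cancer line. acRIP-seq is the immunoprecipitation of fragmented RNA with an antibody to N4-acetylcytidine (ac4C), followed by sequencing, and a peak is a stretch of RNA enriched by the antibody. The members were the 56 protein-coding genes whose symbols start with EIF1, EIF2, EIF3, EIF4, EIF5 or EIF6, out of 20056 protein-coding genes in the table used. A peak was given to a gene when its midpoint lay in the gene's span on the same strand (GRCh38). The control group was SW620 carrying a control shRNA (shControl, genotype WT in the labels, 3 libraries), and the other group was SW620 in which NAT10 was knocked down by shRNA (shNAT10, 3 libraries). Both groups were grown in L15 with serum, and both were total RNA precipitated for ac4C. The knockdown lines were stable lines made with lentiviruses, and more than a single shRNA to NAT10 was designed. Which of them these libraries carry is not given in the sources used here, nor is whether the 3 libraries of a group came from separate cultures, so that the spread between them may be technical. The matching input libraries were not analysed here, and a peak therefore cannot be set against the amount of the mRNA.

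Initiation begins when eIF2 brings the initiator tRNA to the small ribosomal subunit, where eIF1, eIF1A, eIF3 and eIF5 gather. The eIF4F complex, made of the cap-binding protein eIF4E, the scaffold eIF4G and the helicase eIF4A, recruits that subunit to the cap of the mRNA, and eIF5B joins the large subunit after the start codon is found. The pathway is slowed by kinases that phosphorylate eIF2, which blocks its exchange factor eIF2B, and by the 4E-binding proteins, which hold eIF4E. NAT10 is the acetyltransferase that writes ac4C, a mark studied in mRNA for its links to stability and translation.

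The libraries held 17877 to 28752 peaks, with the most in knockdown library 1, and 95.9% to 96.6% of them lay in a protein-coding gene on the same strand. The lists give a score per peak and no counts, so the depth behind a peak is unknown. In a library, peaks were listed for 38.8% to 50.9% of protein-coding genes. The score ran from 50 to 3233 and 7.61% to 13.7% of the peaks of a library had exactly 3100, so each score is given here as its percentile among all peaks of its own library. A peak tied at 3100 stood at a percentile of 92.7 to 96.0, depending on the library. NAT10 itself had 1, 0 and 2 peaks in the control libraries and 2, 0 and 1 in the knockdown libraries. A peak number does not measure an mRNA, so this does not check the knockdown. Of 10 colorectal epithelium markers, peaks were listed for 6, near the 60.3% of protein-coding genes as a whole. EPCAM, KRT8, CDX2 and VIL1 had them in every library, CDH17 in 3 and LGALS4 in 2. For KRT18, KRT20, CDX1 and GPA33 no peak was counted. Of 8 markers of leukocytes, endothelium and fibroblasts, 1 had peaks (COL1A1, in 3 libraries). These counts do not identify the cells.

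Peaks were listed for 38 of the 56 initiation factor genes (67.9%) in 1 library or more, beside 60.3% of protein-coding genes as a whole. In all 6 libraries there were peaks for 21 members (37.5%), beside 29.4%. The 18 genes without a peak in any library were EIF1, EIF1AY, EIF2A, EIF2B2, EIF2B4, EIF2D, EIF2S3, EIF2S3B, EIF3E, EIF3G, EIF3H, EIF3I, EIF3K, EIF3M, EIF4A1, EIF4A2, EIF4E1B and EIF4G2. They include the major forms of the helicase eIF4A and the eIF2 subunit that binds GTP and the initiator tRNA (eIF2γ, from EIF2S3). No list held a peak on chromosome Y, where EIF1AY lies. For EIF3E, EIF3G and EIF3H no strand was at hand, and no peak lay in their spans on either strand. The genes without a peak had a median span of 16.6 kb, those with a peak in 1 to 5 libraries 18.3 kb and those with a peak in all 6 libraries 33 kb. Over all genes the same medians were 14, 25.8 and 37.2 kb, and the part of gene span in these counts was not tested.

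The initiation factor genes also differed among themselves in the sequence at their start. Many mRNAs of ribosomal proteins and translation factors begin with a terminal oligopyrimidine (TOP) tract, a C at the first base followed by a run of C and T. The RefSeq start windows (GRCh38.p14) were searched on the sense strand for a C at the annotated first base followed by at least 4 bases that are C or T. A window was used only where its start was the outermost start of the gene's span, which held for 44 of the 56 genes. Of the 44 genes, 10 (22.7%) held such a run, beside 4.57% of 13819 protein-coding genes with a window. The 10 are shown because 7 of them are genes without a peak in any library. By the midpoint rule the other 3 had a peak in 1 to 5 libraries, but peaks touched the spans of EIF3D and EIF3F in all 6. Each line gives the last 15 bases before the annotated gene start and the first 15 of the gene, 5′ to 3′ on the gene's strand, with the pyrimidine run in capitals.

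EIF2A, chr3:150546772-150546801, plus strand, no peak: tcacccgagcggtttCTCTTTCCgggacaa
EIF2D, chr1:206612451-206612480, minus strand, no peak: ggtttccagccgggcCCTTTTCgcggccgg
EIF2S3, chrX:24054941-24054970, plus strand, no peak: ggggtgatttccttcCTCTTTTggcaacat
EIF2S3B, chr12:10505875-10505904, plus strand, no peak: ggggtgactttcttcCTCTTTTggcaacat
EIF3K, chr19:38619173-38619202, plus strand, no peak: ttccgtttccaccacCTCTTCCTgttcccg
EIF3M, chr11:32583816-32583845, plus strand, no peak: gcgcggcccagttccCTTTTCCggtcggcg
EIF4A2, chr3:186783562-186783591, plus strand, no peak: gttgggcgccgctgtCTTTTCagtcgggcg
EIF4B, chr12:53006441-53006470, plus strand, a peak in 1 library: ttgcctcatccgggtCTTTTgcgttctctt
EIF3F, chr11:7987322-7987351, plus strand, a peak in 4 libraries: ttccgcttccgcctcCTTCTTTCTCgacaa
EIF3D, chr22:36529152-36529181, minus strand, a peak in 5 libraries: gcgcgcgcatgtttcCTCTTTTCCTggttt

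The windows of 4 genes without the run are also given, each with a peak region across the gene start in all 6 libraries. EIF3F, shown above with the run, likewise had a peak region across its start in all 6.

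EIF5B, chr2:99337374-99337403, plus strand: gcgcactgagaactcacaccatatgtgtcc
EIF1AX, chrX:20141824-20141853, minus strand: gcaaagagtcgcggcgccatttgctgccgc
EIF2B1, chr12:123633672-123633701, minus strand: gaggggtacggaagtgcgccggaagtgggg
EIF2B3, chr1:44986581-44986610, minus strand: attgggctgtcagtcagaggcggcgtggag

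Among the initiation factor genes with a window, the run was found in 7 of 15 without a peak, 3 of 16 with a peak in 1 to 5 libraries and 0 of 13 with a peak in all 6, by the midpoint rule. EIF2S3 and EIF2S3B, both among the 7, have nearly the same window and are not independent counts. With any base of a peak in the span taken as enough, a setting chosen after these values were seen, the counts were 7 of 15, 1 of 12 and 2 of 17, the last being EIF3D and EIF3F. The share with peaks in all 6 libraries therefore rests on the rule, and that without a peak does not. Over all genes the shares by the midpoint rule were 4.11%, 5.01% and 4.69%, and those by any base 4.06%, 4.81% and 4.93%, so that across protein-coding genes the run was about as frequent with peaks as without. Of 28 other translation genes with a window, 2 held the run, 1 without a peak and 1 with. This search was chosen after the windows had been seen, and the counts are a description. A gene can use other starts than the one annotated, and the window of EIF5A, EIF4A1 or any other member without the run says only that these letters are not at that base.

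Among the genes of start codon recognition and subunit joining, the peaks hardly varied from library to library. EIF5B, the GTPase that joins the subunits, had 8 peaks in each of the 6 libraries, and all 8 regions had the same boundaries in every library. The sources used here do not say whether boundaries were set library by library. Its first region, chr2:99337353-99337589, covers the gene start shown above and was at 3100 or above in all 6 libraries. The other 7 lay between 22847 and 38958 bases downstream of the start, in a span of 63.9 kb. EIF1AX, which helps the scanning subunit recognise the start codon, had 2 peaks in every library, 1 across the gene start (chrX:20141625-20141844) and 1 at chrX:20138539-20138622. EIF5, the GTPase-activating protein of eIF2, had 1 peak in each library other than control library 3. EIF1B had 1 peak in control libraries 2 and 3 and knockdown library 1, and none elsewhere. The paralogues EIF1 and EIF1AY had none.

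In eIF2 itself, peaks were found on the gene of a single subunit in more than 1 library. EIF2S2, which encodes eIF2β, had 2 peaks in all 6 libraries, at chr20:34112096-34112332 across the gene start and at chr20:34105368-34105545, both tied at 3100 throughout. EIF2S1, which encodes the subunit that the kinases phosphorylate, had 1 peak, in control library 2, at a percentile of 6.35 and in a stretch that also lies in the span of another gene. In the exchange factor eIF2B, EIF2B1 had 2 peaks in each library. EIF2B3 had 1, 4 and 1 in the control libraries and 5, 1 and 2 in the knockdown libraries, so that the highest counts of both groups stood in the libraries with the most peaks. EIF2B5, the catalytic subunit, had 1 peak, in control library 3, and EIF2B2 and EIF2B4 had none.

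All 4 kinases of eIF2 had peaks. EIF2AK1, the kinase HRI, had 2, 2 and 2 peaks in the control and 3, 2 and 2 in the knockdown libraries. EIF2AK4, the amino acid sensor GCN2, had 5, 6 and 2 in the control and 3, 4 and 5 in the knockdown libraries, over 9 regions of which 2 were present in all 6. EIF2AK3, the endoplasmic reticulum stress kinase PERK, had 1, 2 and 1 against 2, 3 and 2. EIF2AK2, the double-stranded RNA sensor PKR, had 2, 3 and 1 against 0, 1 and 1. The last pair leaned in opposite directions and shared a value between groups in each case, with exact two-sided permutation p = 0.3 for both (3 libraries against 3, where the smallest possible p is 0.1).

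eIF3, the largest of the factors, was divided by subunit. Of its 14 genes, EIF3A, EIF3B, EIF3C and EIF3CL had peaks in all 6 libraries, while EIF3E, EIF3G, EIF3H, EIF3I, EIF3K and EIF3M had none. EIF3A, the largest subunit, had 6, 7 and 6 peaks in the control and 8, 5 and 7 in the knockdown libraries. Its 4 regions shared by all libraries, at 30832, 36675, 38045 and 42378 bases from the start, were tied at 3100 in every library, and its region across the gene start stayed at percentiles of 27.7 to 54.0 in the 4 libraries that had it. EIF3B, another core subunit, had 2, 3 and 2 peaks in the control and 3, 2 and 2 in the knockdown libraries, of which the 2 at 780 and 6624 bases from the start were at 3100 in all 6. EIF3C had 2, 2 and 3 against 3, 2 and 2 peaks, and EIF3CL had 3, 2 and 3 against 5, 3 and 4. EIF3C and EIF3CL are near-identical copies on chromosome 16, each with a region of 190 bases tied at 3100 in every library and a weaker one of 364 bases, so reads may have been split or shared between them and their separate values are uncertain.

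EIF3F showed how the midpoint decides a count. It had 1 peak in each control library, 1 in knockdown library 1 and 0 in knockdown libraries 2 and 3. Nevertheless, all 6 libraries held a peak in chr11:7986922-7987716, across the gene start, and in knockdown libraries 2 and 3 its midpoint lay upstream of the gene. The score of this region stood at percentiles of 84.1, 89.3 and 82.1 in the control and 92.7, 94.0 and 83.9 in the knockdown libraries. The region was therefore not lost in the knockdown libraries, and its percentiles overlapped between the groups. With any base of a peak in the span taken as enough, the groups did not overlap in 1 initiation factor gene, EIF3D, with more peaks in the knockdown libraries, beside 2.24% of all genes with a peak in either direction. EIF3D, which can itself bind a cap, had 1, 0 and 1 against 2, 1 and 1 peaks by the midpoint, and its region across the gene start (chr22:36528903-36529436) was present in 1 control library and in the 3 knockdown libraries at percentiles of 4.27 to 51.4.

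The cap-binding complex was led by the scaffold genes. EIF4G3 had the most peaks of all members, with 11, 13 and 11 in the control and 12, 11 and 12 in the knockdown libraries, in a span of 371 kb. Of its 16 regions, 10 were present in all 6 libraries, and none reached 3100 in any library. EIF4G1, the main scaffold, had 4, 3 and 2 peaks against 4, 4 and 4 in a span of 20.8 kb. The first region of EIF4G1, 802 bases from the start, was at 3100 in 5 libraries, and its last one, chr3:184334727-184335358 at the gene's end, was present in control library 1 and all 3 knockdown libraries. EIF4E, the cap-binding protein, had 1, 3 and 1 peaks in the control and 1, 0 and 1 in the knockdown libraries. Its main region lay 41 bases from the gene start at chr4:98928895-98929092 and was absent from knockdown library 2. EIF4H, which stimulates the helicase, had 1 peak in every library, and EIF4E2, a cap-binding homologue, had 1, 2 and 1 against 2, 1 and 1. EIF4B had a peak in knockdown library 1 only, and EIF4A1, EIF4A2, EIF4G2 and EIF4E1B had none.

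All 4 genes grouped here as eIF4E-binding inhibitors had peaks. EIF4ENIF1, the transporter of eIF4E (4E-T), had 5, 4 and 4 peaks in the control and 7, 4 and 4 in the knockdown libraries, but these were scattered over 11 regions of which 1 was present in all 6 libraries. In contrast, EIF4EBP1 had its 2 regions in 6 and 5 libraries, with 2 peaks in each library other than knockdown library 2, which had 1. EIF4EBP2 had 1, 2 and 1 against 2, 2 and 2 peaks, with the region at 234 bases from its start at 3100 in all 6 libraries. Its other region, chr10:70419914-70420099, was present in control library 2 and in all knockdown libraries. EIF4EBP3 had a peak in knockdown library 1 only, in a stretch that also lies in another gene's span.

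The members of the remaining groups had few peaks. EIF4A3, a helicase of the exon junction complex despite its name, had 2, 2 and 2 peaks against 2, 1 and 1. Its region across the gene start, chr17:80146793-80147183, was tied at 3100 in all 3 control libraries and in knockdown library 1 and absent from knockdown libraries 2 and 3. EIF5A2, a paralogue of the elongation factor eIF5A, had 1, 1 and 2 peaks against 2, 0 and 1. EIF5AL1 had 1 peak in every library and EIF5A had 1 in control library 2 and knockdown libraries 1 and 2. EIF5A and EIF5AL1 are near copies, and their reads may be shared. EIF6, which keeps the large subunit apart from the small, had 1 peak in each library other than control library 2.

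**Figure D1:**
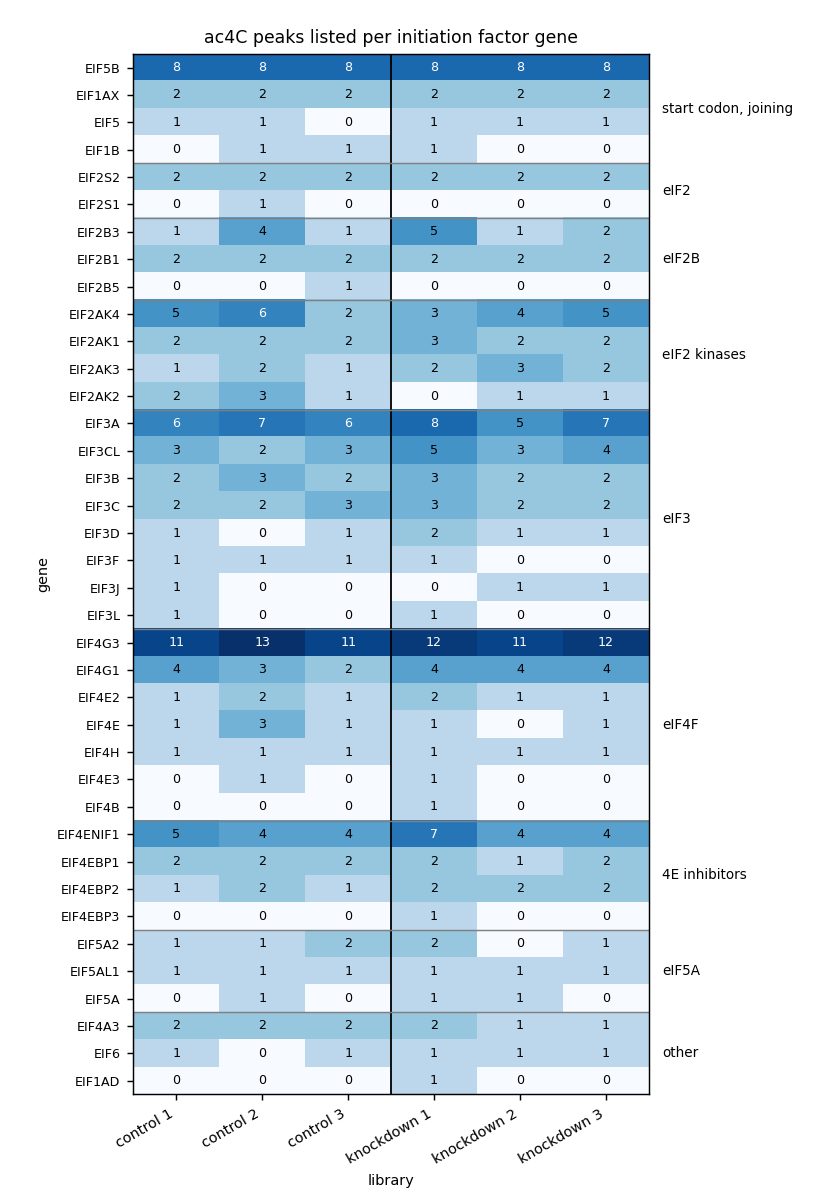
Number of ac4C peaks listed in each library (columns; 3 control and 3 knockdown libraries) for the 38 initiation factor genes that had any peak (rows, grouped by role); the number is printed in each cell and a darker blue marks more peaks. EIF4G3, EIF5B and EIF3A led in every library, and no gene has all knockdown values above or below all control values.

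The question of the study's design was whether ac4C on mRNAs changes when NAT10 is knocked down, and no initiation factor gene separated the groups by its number of peaks. The members held 74, 85 and 68 peaks in the control libraries (75.7 ± 8.62, SD, n = 3) and 94, 68 and 75 in the knockdown libraries (79 ± 13.5, SD, n = 3), so the difference of 3.33 was smaller than the spread in either group. As a share of all peaks of a library they were 0.327% to 0.406%. Members with a peak numbered 30, 30 and 29 in the control and 34, 27 and 28 in the knockdown libraries, with a mean of 29.7 in both groups. The highest value of both measures in the knockdown group stood in knockdown library 1, which also had the most peaks overall.

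Of the 38 members with a peak, 0 had peaks in all control and no knockdown libraries (0.331% of 12093 genes with a peak did) and 0 the reverse (0.364%). None had a peak number in every control library above all knockdown libraries (0.653% of genes) or in every knockdown library above all control libraries (1.57%). With 38 members these shares amount to less than 1 gene in each direction, so the zeros do not set the members apart from the other genes. The smallest exact two-sided permutation p among them was 0.3 (EIF2AK2, EIF2AK3 and EIF3CL), and every adjusted p over the 12093 genes was 1 (Benjamini-Hochberg). With 3 libraries against 3 this test cannot pass 0.05 for any gene.

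The same held for single stretches of RNA. Merging the peaks of the 6 libraries that shared at least 1 base on the same strand gave 124 regions in members, of which 50 (40.3%) were present in all 6 libraries, beside 21.9% of 40498 regions in genes. In 43 of these 50 (86%) the boundaries were identical in all 6 libraries, beside 69.3%. Whether boundaries were set in each library on its own is not given in the sources used here. Identical boundaries are therefore not read as separate libraries agreeing on a position. A further 35 regions (28.2%, beside 38.7%) were present in a single library, 14 of them in knockdown library 1 and 12 in control library 2, the libraries with the most peaks. None of the 124 regions was present in all control and no knockdown libraries (0.341% of gene regions), and none the reverse (0.827%).

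Several regions leaned to a group without separating it. Present in 3 knockdown libraries and 1 control library were those of EIF3D, EIF4EBP2 and EIF4G1 given above, with chr2:88613724-88613853 in EIF2AK3, chr15:39939505-39939617 in EIF2AK4 and chr16:28391980-28392142 in EIF3CL. The region of EIF4G1 was the highest of these in the knockdown libraries, at percentiles of 85.3, 67.0 and 80.6, with 41.6 in control library 1. That of EIF3CL stood higher in control library 1 (79.8) than in the knockdown libraries (52.8, 61.4 and 58.0). In EIF4EBP2 the single control value was below every knockdown value, and in EIF3D, EIF2AK3 and EIF2AK4 it lay between them. The opposite lean was seen at the start of EIF4A3, in 3 control libraries and 1 knockdown library. These regions were picked for their pattern, which was not tested, and its share over all gene regions was not counted. Of all gene regions, 0.827% were present in all knockdown and no control libraries, and 0.341% the reverse. The lean to the knockdown is therefore not read as a trait of the members.

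Peaks in initiation factor genes stood high in the score ranks of every library. In the control libraries 27.0%, 32.9% and 38.2% of the members' peaks had a score of 3100 or above, beside 7.85%, 9.95% and 12.9% of all peaks. In the knockdown libraries the shares were 35.1%, 38.2% and 40.0%, beside 14.1%, 11.5% and 13.1%. The members' share was therefore higher than that of all peaks in 6 of 6 libraries, with means of 32.7% ± 5.61 in the control and 37.8% ± 2.48 in the knockdown group (SD, n = 3), ranges that overlap. Of the 50 shared regions, 16 (32%) were at 3100 or above in all 6 libraries, beside 9.99% of 8872 shared gene regions. These 16 came from few genes, with 10 in eIF3 (4 in EIF3A and 2 each in EIF3B, EIF3C and EIF3CL), 2 in EIF2S2, 2 in EIF5B and 1 each in EIF4EBP1 and EIF4EBP2. The 10 of eIF3 include the possibly shared reads of EIF3C and EIF3CL. The members are few, share genes and are not replicates, so no test was made of this share.

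**Figure D2:**
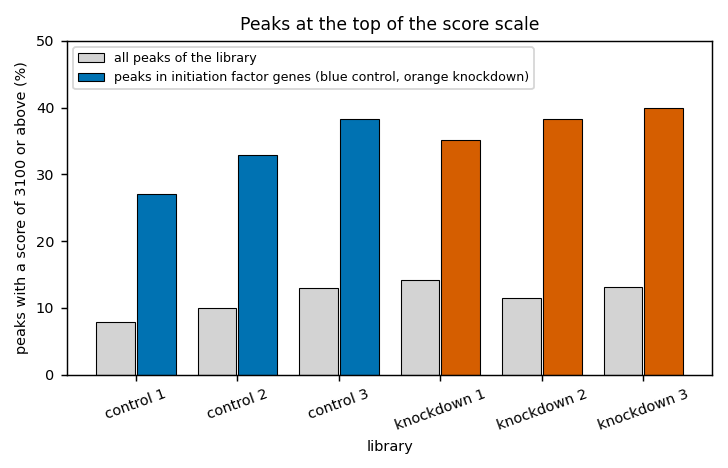
Percentage of peaks with a score of 3100 or above (vertical axis) in each library, for all peaks (grey) and for peaks in initiation factor genes (blue, control; orange, knockdown); each bar is 1 library and carries no error. The members' bars run from 27.0% to 40.0%, all above the grey bars, and the 2 groups overlap.

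Where the peaks lay differed between the genes with the most of them. In EIF3A, whose span is 47.1 kb, the regions tied at 3100 began 22514 bases from the start or farther, and the region at the start was weak. In EIF5B the region at the start and the next, 22847 bases downstream, were at 3100 or above in all 6 libraries, and none of the 6 further regions was. EIF4G3 had no region across its start, and its first one lay 87684 bases downstream. Over the members, 14 regions covered the gene start, and those of EIF2S2, EIF2AK1, EIF2B1, EIF2B3, EIF3F, EIF1AX and EIF5B were present in all 6 libraries. Between 7.35% and 13.2% of the members' peaks covered a gene start in a library, beside 10.4% to 14.8% of all peaks in genes. No exon annotation was at hand, so exons, introns and untranslated regions were not told apart.

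**Figure D3:**
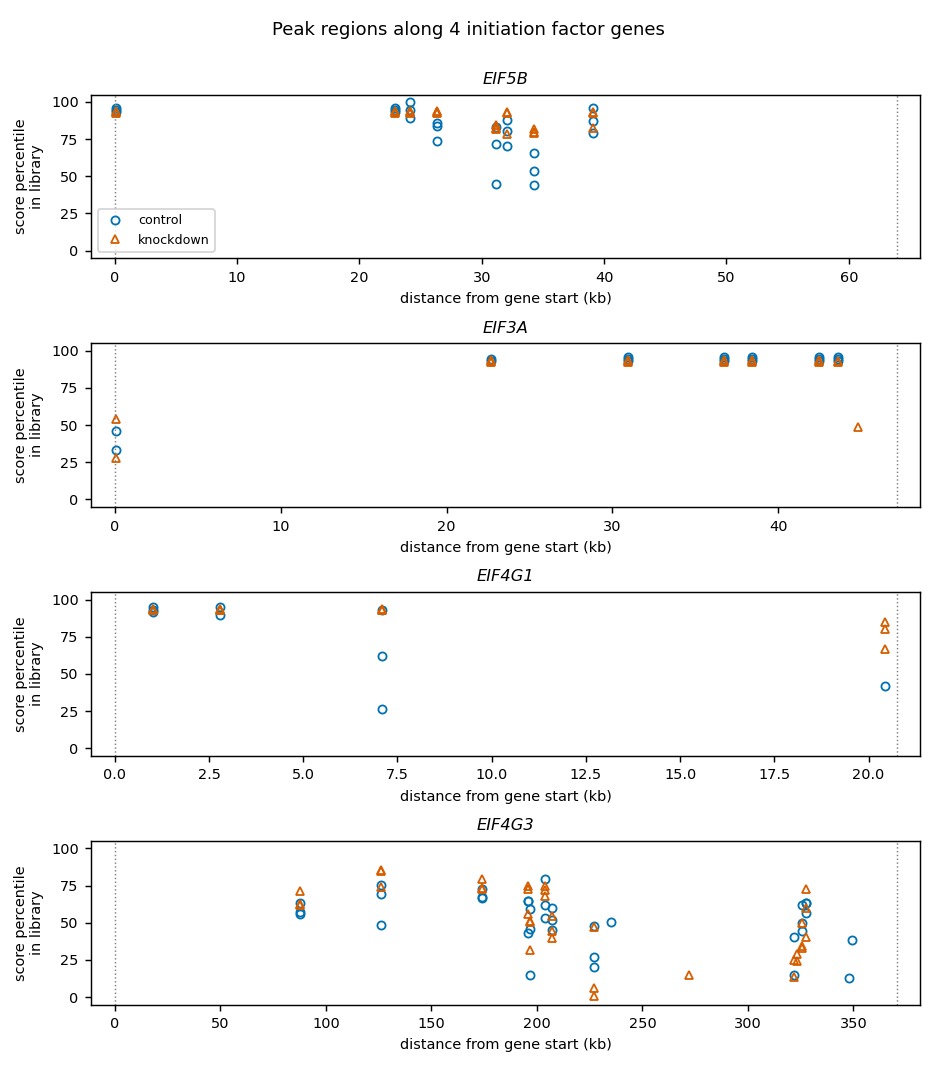
Peak regions along EIF5B, EIF3A, EIF4G1 and EIF4G3, by the distance of the region's centre from the gene start in kb (horizontal axis, dotted lines at the gene's start and end) and the score percentile of the peak in its library (vertical axis; blue circles, 3 control libraries; orange triangles, 3 knockdown libraries). The regions of EIF3A downstream of the start stand at the tied score in all libraries that have them, other than the last, and those of EIF4G3 stay below it.

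The score ranks of shared regions were then compared between the groups with limma, on the normal quantile of the score rank, over all 9195 regions with a peak in all 6 libraries. None of the members' 50 shared regions was called at an adjusted p of 0.05, in either direction (0% of all regions in each), and the smallest adjusted p of any region was 0.221. Without adjustment, 3 of the 50 and 588 of all regions (6.39%) had p under 0.05. These 3 were 2 regions of EIF5B and 1 of EIF1AX, all higher in the knockdown libraries. Of the 50 differences, 23 were above 0 and 27 below (46% above, beside 53.4% of all regions), and the median was -0.01, beside 0.03 over all regions. The 27 include the 16 regions at 3100 or above in every library, which all have the same slightly negative value because the rank of the tie differs between libraries. Among regions below 3100 in every library, a setting added later, 16 of the members' 22 differences were above 0. That was 72.7%, beside 56.6% of all such regions, and the median was 0.15, beside 0.05. No region was called there, and the share was not tested because the regions share genes. On the log2 of the score itself, 1 region of all was called and none of the members.

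The region chr2:99371656-99371730 of EIF5B stood at percentiles of 65.4, 53.7 and 44.2 in the control and 81.8, 78.9 and 79.8 in the knockdown libraries. All knockdown values were above all control values, and the difference on the quantile scale was 0.73 (limma adjusted p = 0.738 over all regions). A second region of EIF5B, chr2:99363645-99363862, stood at 86.1, 73.7 and 83.9 in the control libraries and was tied at 3100 in the 3 knockdown libraries (limma adjusted p = 0.738). The region of EIF1AX downstream of its start stood at 81.7, 74.8 and 80.3 against 92.7, 94.0 and 85.4, where knockdown libraries 1 and 2 were at 3100 (limma adjusted p = 0.75). These differences did not pass the test, and the share of peaks at 3100 or above also differed between libraries, from 7.85% in control library 1 to 14.1% in knockdown library 1. Its part in these ranks was not tested.

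The 3 largest differences in each direction on this scale included the first EIF5B region above. In EIF4G1, chr3:184321282-184322103 stood at 26.3 and 62.1 in control libraries 1 and 2 and was at 3100 in control library 3 and all knockdown libraries, a difference of 1.11 ± 0.50 (SE, limma adjusted p = 0.773). In EIF4ENIF1, its single shared region stood at 15.5, 26.6 and 58.4 against 69.7, 57.2 and 37.9, and the groups overlapped. Lower in the knockdown group was chr17:80144172-80144244 of EIF4A3, with scores of 3185, 3100 and 3100 in the control and 2115, 2645 and 3100 in the knockdown libraries. In EIF4G3, chr1:20950003-20950111 stood at 20.1, 47.9 and 27.0 against 47.3, 5.82 and 0.921, so that knockdown library 1 was within the control range. In EIF5B, chr2:99361148-99361820 stood at 89.0, 94.8 and 99.8 against 92.7, 94.0 and 93.2, and the groups overlapped. The 16 regions tied at 3100 throughout could show no change in this score, whatever their enrichment.

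Of the 22 shared regions of members below 3100 in all 6 libraries, the ranks of the groups did not overlap in 1, that of EIF5B at chr2:99371656-99371730, with the knockdown higher (7.98% of 5575 such gene regions did this), and in 0 with the control higher (4.39%). The members' count was near the background in both directions.

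**Figure D4:**
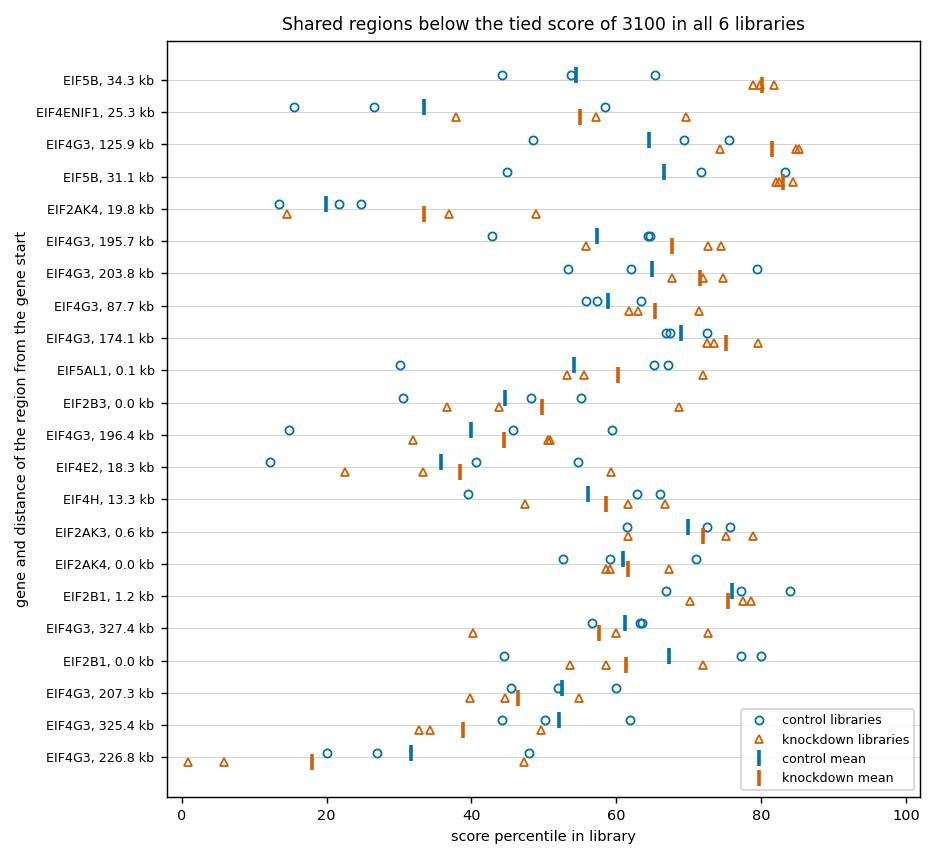
Score percentile in the library (horizontal axis) for the 22 regions of initiation factor genes that were present and below 3100 in all 6 libraries (rows, named by gene and distance of the region from the gene start); blue circles are the 3 control and orange triangles the 3 knockdown libraries, and bars are group means. The groups are apart in the top row, EIF5B, and overlap in the other 21.

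The other genes of translation did not separate the groups either. Of 33 genes for poly(A)-binding, scanning, elongation and termination factors and for the kinases and transcription factors around them, peaks were listed for 25, and for 18 of these in every library. The 8 without a peak were MCTS1, DDX3X, EEF1A1, EEF1B2, GSPT2, RPS6KB2, ATF4 and DDIT3, among them the main delivery factor of elongator tRNAs (EEF1A1) and the transcription factor whose translation rises when eIF2 is phosphorylated (ATF4). None of the 33 had peak numbers that did not overlap between the groups. Of all genes with a peak, 0.653% did so with the control higher and 1.57% with the knockdown higher. With 25 genes holding a peak, this count does not set them apart from the other genes.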

How the data were processed

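The authors deposited 1 list of mRNA peaks per ac4C library in BED format on GRCh38, per the labels, with a score for each peak and peak names in the manner of MACS. The caller's version, aligner and settings are not given in the sources used here. The deposited score was used only as a rank within its library. Genes, spans and start windows came from RefSeq tables (GRCh38.p14). The strand of a gene came from its start windows at any position (47 members) or, without one, from the majority of the peaks in its span (6 members, with 99.3% matching over 9360 genes with both). No replicate file was pooled.

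The members and lists were chosen with earlier results of these data known. Values in every library were given for the 12 members with the most peaks (ties included), the highest of each of 9 roles and those with the 3 largest rank differences in each direction. Other genes with values were named after these were seen. Regions merged peaks sharing at least 1 base on a strand. The number of peaks per gene was tested by exact permutation (two-sided), and presence was taken as 3 libraries against 0, with Python 3.11.15 and scipy 1.17.1. Score ranks were tested with limma 3.58.1 in R 4.3.3, with Benjamini-Hochberg adjustment at 0.05. The presence calls and limma were checked on simulated data. The shifts planted for limma were larger than any difference in the members' regions, so smaller differences were not checked. Alternatives were the upper 50% of peaks by score, equal peak numbers (17877), other rules for genes and for regions, the log2 score, the replicate block and each library left out.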

Additional observations from a re-analysis of the deposited data

How the results depend on the processing

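The lists hold no counts, so depth limits every absence. Same-numbered libraries did not deviate together from their group means. Over 9195 shared regions, these deviations of the score quantile had correlations of -0.01, -0.05 and 0.05 between same-numbered libraries. With the replicate block the limma calls in members stayed at 0. In this balanced design a block cannot change the difference of 3.33 in member peaks, so it is no check of that value. The limma call count in members stayed at 0 in all alternatives run, while the log2 score called 1 region outside them. The difference in member peaks per library ranged from -4.17 to 8.83 with 1 library left out, negative without knockdown library 1 (-4.17) or control library 3 (-0.50), and was 1.33 with equal peak numbers and 4.33 with the upper 50% of peaks by score. The difference in members with a peak ranged from -2.17 to 1.33 with 1 library left out.

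No member lay apart between the groups in peak number, but 1 did with the 50% highest-scored peaks (EIF4G1, knockdown higher) and 1 with any base of the peak in the span (EIF3D, an alternative chosen after seeing the data), beside 2.2% and 2.24% of genes in either direction. Leaving out 1 library gave 0 to 2 such members, with 2 without control library 2 (EIF2AK3 and EIF4EBP2) or knockdown library 1 (EIF3F and EIF4A3) and 1 without control library 1 (EIF4G1), control library 3 (EIF2AK2) or knockdown library 2 (EIF3CL), beside 4.6% to 6.54% of genes. Presence of a gene in all libraries of a group and none of the other held for 0 to 1 members, the 1 being EIF3F without knockdown library 1, where 2.7% of genes did so. Regions present in a single group numbered 1 with the 50% highest-scored peaks (that at the end of EIF4G1) and 0 to 5 with 1 library left out, the 5 without control library 2, beside 2.32% to 3.45% of gene regions. With fewer libraries more genes and regions separate by construction, and the cause of the other changes was not tested. Of 192 values for the 16 named genes, 188 moved by less than 1 SD and 4 by more. These values include the replicate block, which cannot change a difference of means. Where a gene had the same count in every library, as EIF5B did, the SD was 0 and any change counted as more.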

Other observations

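On the strand opposite to the gene, 1 peak lay in the span of EIF2D and 1 in that of EIF5B. EIF2D, which can deliver initiator tRNA without eIF2, had no peak on its own strand.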
